A study of Mus musculus with 8 samples.

Results

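Interferon-stimulated genes are the genes that cells switch on after an interferon binds its receptor. Transcripts of 40 of them were followed here in splenic B cells of C57BL/6 mice. They were taken by symbol from a list that was chosen with earlier results of these data known. All 40 were found among the 37583 Ensembl gene identifiers of the count tables, and all 40 were among the 13964 genes with enough counts to be tested. RNA was sequenced from 8 libraries in 3 groups, all labelled strain B6. Of these, 3 libraries were of naive B cells. A further 3, labelled Bregs-CpG and called CpG here, were of B cells given CpG ODN1668, a synthetic DNA that Toll-like receptor 9 recognises, for 3 days. The last 2, labelled Bregs-TLR and called TLR here, were of B cells given the same CpG, to which LPS, a ligand of Toll-like receptor 4, ionomycin, which lets calcium into the cell, and PMA, which switches on protein kinase C, were added in the last 5 hours. Breg stands for regulatory B cell, a B cell that restrains immune responses. Age and sex are not given in the sources used here. Nor do they say that each replicate was a different mouse or culture, so every p-value compares groups with a spread that may be technical. The labels name no untreated culture of the same length, so the CpG effect and the effect of culture cannot be told apart.

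Type I interferons (interferon alpha and beta) bind the receptor chains Ifnar1 and Ifnar2, and the kinases Jak1 and Tyk2 then phosphorylate STAT proteins, among them Stat2. Stat2 and Irf9 are parts of a complex that binds the interferon-stimulated response element, a short DNA sequence in front of many interferon-stimulated genes. The proteins these genes encode sense viral nucleic acid, block viral replication, modify other proteins with the ubiquitin-like Isg15, or turn the signal down again, as Usp18 does. In B cells, Toll-like receptors 7 and 9 and type I interferon both influence activation and antibody production. Some interferon-stimulated genes can also be induced without interferon, by Irf3 or by other factors downstream of Toll-like receptors.

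Values are in CPM, counts scaled to the size of the library and by TMM, the trimmed mean of M-values. Changes are log2 fold changes with their SE. Each p is adjusted by Benjamini-Hochberg over all tested genes in edgeR's quasi-likelihood test, and a gene is said to rise or fall where it is below 0.05. Gene totals ran from 15804311 to 20069272 counts per library, so 1 count was worth 0.0501 to 0.0645 CPM. As a check of the B cell label, all 7 of the markers used (Cd79a, Cd79b, Ms4a1, Pax5, Cd22, Blnk and Cd72) were found in every library. Their sum was 8434 to 9012 CPM in naive, 7809 to 11199 CPM in CpG, and 2289 and 2466 CPM in TLR, and all 7 fell in TLR against CpG. In bulk RNA, fewer cells of a type and less RNA per cell cannot be told apart. The files of replicate 1 in all groups are named with a different prefix from the other 5. In those 3 libraries 37.5% to 50.2% of all entries tallied had aligned to several places, against 14.7% to 21.5% in the rest. A read that aligns to several places may be tallied more than once.

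The 2 TLR libraries stood apart from each other in these genes. Of the 40 members, 34 were higher in TLR replicate 2 than in replicate 1, and the median log2 ratio was 0.81, where over all tested genes 49.1% were higher and the median was 0. On the scale of log2(CPM + 0.5), 15 members (37.5%) were over 2-fold higher in replicate 2, against 1.30% of all tested genes, and no member was over 2-fold higher in replicate 1, against 1.25% of all. The 181 tested genes over 2-fold higher in replicate 2 thus held 15 members, which is 8.29% of them. These are descriptions of a pair of libraries, with no test. No other pair of replicates showed such a gap. Between naive or between CpG replicates, the members' median log2 ratio was -0.01 to 0.17, and at most 1 member differed over 2-fold. Pairs that hold replicate 1 join different prefixes in naive and CpG as in TLR. For replicates 2 and 3 over replicate 1 the members' medians were 0.08 and 0.06 in naive and 0.08 and 0.17 in CpG. For replicate 3 over replicate 2, which share a prefix, they were -0.01 in naive and -0.004 in CpG. The coefficient of variation had a median over members of 10.4% in naive, 13.0% in CpG and 40.2% in TLR.

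The members with the widest gap between the TLR libraries serve several antiviral roles. Usp18, the protease that removes Isg15 from proteins and dampens the interferon receptor, had 12.3 CPM in TLR replicate 1 and 50.9 CPM in replicate 2. Mx1, a dynamin-like GTPase that blocks influenza virus and is truncated in C57BL/6 mice, had 16.5 and 65.2 CPM. Irf7, the transcription factor that amplifies interferon alpha production, had 17.6 and 55.3 CPM. In each of these genes replicate 1 lay below every CpG library and replicate 2 above every one. Ifit3, an adaptor among the RNA-binding Ifit proteins, had the largest ratio, with 0.906 and 6.61 CPM (16 and 128 counts). Rtp4, a chaperone of receptors and an antiviral protein, had 4.42 and 17.1 CPM. Cmpk2, a mitochondrial nucleotide kinase encoded beside Rsad2, had 10.1 and 36.5 CPM. Ratios over 2-fold were also seen for Eif2ak2, Oas1a, Oas2, Oas3, Mx2, Rsad2, Ifi44, Trim30a and Xaf1. The values of Ifi44 rest on 3 and 22 counts. Only 6 members were higher in replicate 1: Ifih1 by 1.79-fold, Isg15 by 1.31-fold, Ifnar1 by 1.20-fold, Ifnar2 by 1.14-fold, and Oasl1 and Herc6 by 1.05-fold and 1.01-fold. The gap reached beyond the members. Of 68 other interferon-induced genes 57 were higher in replicate 2, with a median log2 ratio of 0.35, and so were 11 of 12 GTPases best known from interferon gamma, with a median of 0.68. The receptor and JAK-STAT list had a median of -0.03, the interferon regulatory factors 0.09 and the nucleic acid sensing list 0.10. On the scale of log2(CPM + 0.5), none of 14 macrophage and monocyte markers differed over 2-fold between the TLR libraries, and their sum was 21.9 and 29.1 CPM. In plain CPM, C1qa, C1qc and Fcgr1 were 2.74, 2.43 and 3.19 times as high in replicate 2, all under 1 CPM in both. The 8 plasmacytoid dendritic cell markers summed to 139 and 157 CPM, of which Tcf4, also expressed by B cells, gave 120.1 and 127 CPM. Among them Ccr9 was over 2-fold higher in replicate 2 (8.49 and 19.5 CPM), Cox6a2 over 2-fold higher in replicate 1 (5.66 and 2.32 CPM), and Siglech had 0 counts in both. The part of other cells in the gap was not tested. The TLR libraries also differ in prefix and in the share of entries aligned to several places (50.2% and 21.5%), and the part of these in the gap was not tested.

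**Figure D1:**
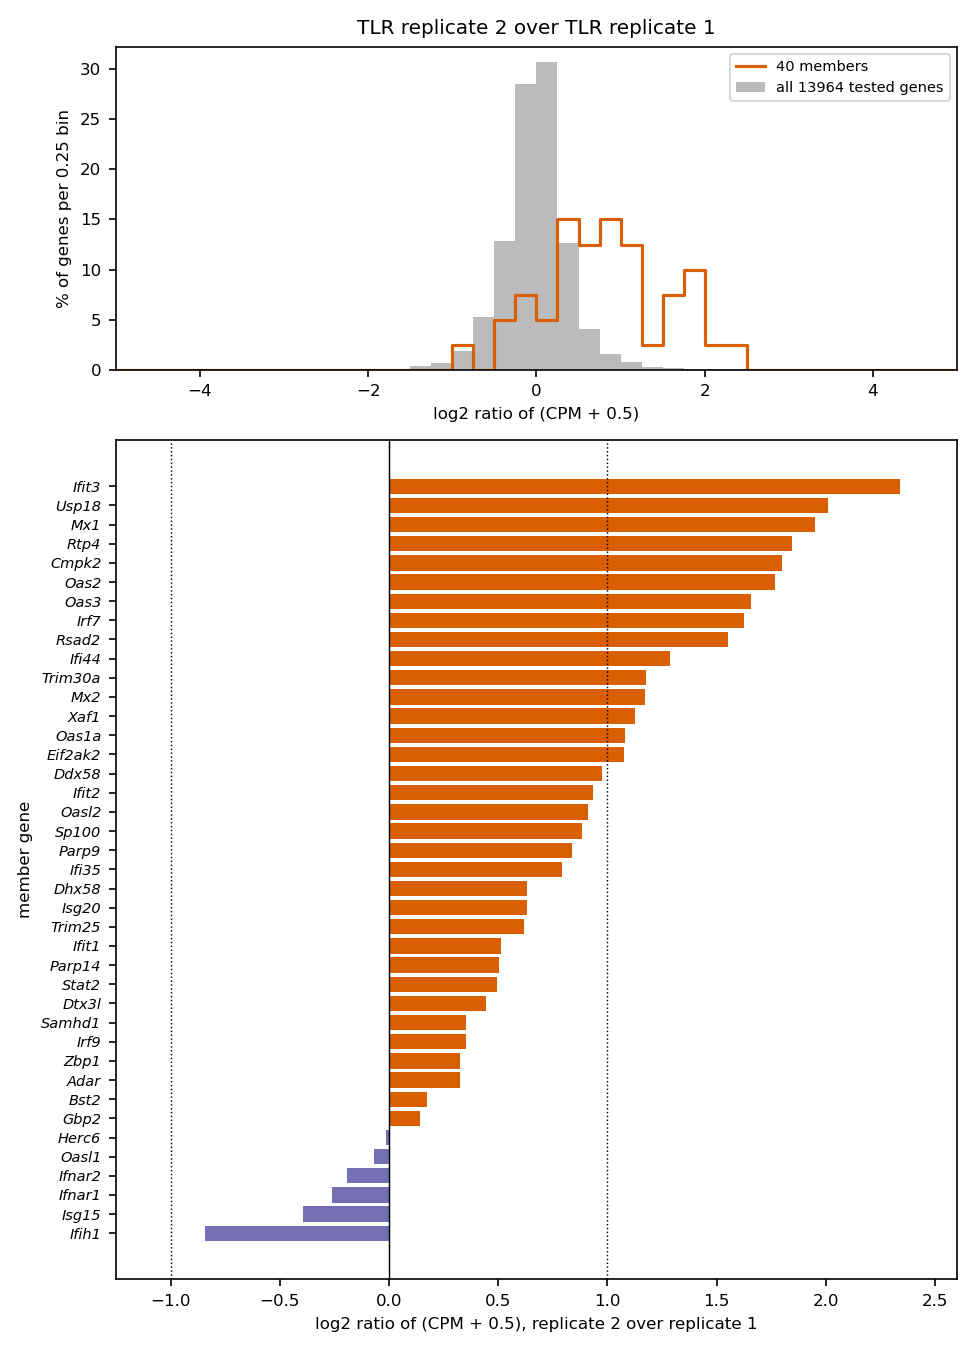
The upper panel gives the share of genes (%) in bins of 0.25 of the log2 ratio of CPM + 0.5 in TLR replicate 2 over replicate 1, for all 13964 tested genes (grey) and for the 40 members (line); the lower panel gives the same ratio for each member, with dotted lines at 2-fold. The members are shifted to the right of all genes, with 34 above 0, 15 beyond 2-fold in favour of replicate 2, and Ifih1 and Isg15 the furthest to the left.

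Because of this gap, the position of each TLR library against the 3 CpG libraries is given separately. In TLR replicate 1, 30 members lay below the lowest CpG library, 3 within the range and 7 above the highest. Over all tested genes these shares were 36.5%, 27.0% and 36.5%. In TLR replicate 2, 12 members lay below the range, 8 within it and 20 above it, where the shares over all genes were 36.7%, 27.9% and 35.4%. The 7 members above the range in replicate 1 were Isg15, Ifih1, Ifit1, Zbp1, Rsad2, Oasl1 and Bst2, and all 7 were above it in replicate 2 too. All 12 members that lay below it in replicate 2 lay below it in replicate 1 as well: Samhd1, Sp100, Ddx58, Dhx58, Oas1a, Oas2, Ifnar1, Ifnar2, Irf9, Dtx3l, Herc6 and Parp14.

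Promoter sequences are shown for some of the members that hold the motif described below before the annotated start. Isg15 (ENSMUSG00000035692) and Ifit1 (ENSMUSG00000034459) were high in both TLR libraries. Ifit3 (ENSMUSG00000074896), Rsad2 (ENSMUSG00000020641) and Oas3 (ENSMUSG00000032661) differed over 2-fold between them. Irf7, Cmpk2, Ifi44 and Xaf1 also differed over 2-fold, and their promoters held no match. Sequences are RefSeq's, on build GRCm38.p6, written 5′ to 3′ on the strand of the gene, and capitals mark the core of the interferon-stimulated response element as searched, GAAANNGAAA or its reverse complement TTTCNNTTTC, with overlapping matches joined. The stretches lie upstream of the annotated start at chr4:156200819-156200918 (minus strand) for Isg15, chr19:34640775-34640874 (plus) for Ifit1, chr19:34583363-34583462 (plus) for Ifit3, chr12:26456483-26456582 (minus) for Rsad2 and chr5:120777660-120777759 (minus) for Oas3.
Isg15: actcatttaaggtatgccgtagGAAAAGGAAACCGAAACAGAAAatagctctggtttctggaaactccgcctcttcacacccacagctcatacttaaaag
Ifit1: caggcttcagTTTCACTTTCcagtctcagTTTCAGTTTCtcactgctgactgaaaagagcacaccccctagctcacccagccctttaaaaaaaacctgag
Ifit3: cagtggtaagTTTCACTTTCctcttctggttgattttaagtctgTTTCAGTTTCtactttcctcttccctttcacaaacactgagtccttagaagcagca
Rsad2: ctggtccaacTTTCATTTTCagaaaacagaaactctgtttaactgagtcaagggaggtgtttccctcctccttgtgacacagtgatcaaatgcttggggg
Oas3: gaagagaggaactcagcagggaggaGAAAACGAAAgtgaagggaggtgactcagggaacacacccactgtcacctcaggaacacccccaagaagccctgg

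Isg15 held 3 overlapping matches on the strand of the gene, Ifit1 and Ifit3 held 2 each, and Rsad2 and Oas3 held 1 each. Ifit1 and Ifit3 shared the same pair of 10-base matches. Over the window of 250 bases before to 50 bases after the start, searched on both strands, 31 of the 40 members had a RefSeq promoter and 13 of these (41.9%) held the core. Among all 9915 tested genes with a promoter it was 3.94%, and among all 32851 promoters 3.44%. The other holders were Bst2, Ddx58, Eif2ak2, Gbp2, Ifih1, Oas1a, Stat2 and Trim30a. The core of the interferon gamma-activated site, TTCNNNGAA, which can overlap the other motif, stood in 10 of the 31 (32.3%) and in 8.44% of the tested genes. Of the 13 members with the response element core, 6 were over 2-fold higher in TLR replicate 2 and their median log2 ratio was 0.97. Of the 18 without it 4 were, and the median was 0.62. Mx1, Mx2, Oas2, Usp18 and Rtp4, also over 2-fold higher in replicate 2, had no promoter to search and are in neither count. Over all tested genes with a promoter, 22 of the 391 with the core (5.63%) and 0.798% of those without it were over 2-fold higher in replicate 2. These 22 include the 6 members. A match describes letters in this window and does not show that a factor binds there.

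CpG against naive asks what CpG culture did to the interferon-stimulated genes. Of the 40 members, 11 rose, 6 fell and 23 did not pass the test. Over all tested genes 45.5% were called, 23.5% higher and 21.9% lower, so in this fit members were called at about the rate of other genes. In it all 3 groups, TLR included, share 1 estimate of the spread. Within the 2 groups compared alone, 14 members rose and 9 fell, where 3004 and 2910 of 13072 tested genes did. Libraries did not overlap between the groups in 16 members with CpG higher and 10 with CpG lower (28.3% and 27.7% of all genes). The median log2 change was 0.09, against 0.01 over all genes. The sensors Dhx58, Ifih1, Eif2ak2 and Zbp1, the effectors Oas1a, Oas2, Gbp2, Bst2 and Isg20, and Isg15 and Ifnar2 rose, while Ifit3, Rsad2, Ifit2, Samhd1, Ddx58 and Trim25 fell. Leaving out CpG replicate 1, naive replicate 2 or naive replicate 3 left 3 members lower in place of 6. Over all genes 3270, 2395 and 2349 were then lower, in place of 3061. Within the 5 libraries that share a prefix, the members' median log2 change was 0.16, against 0.005 over all genes. The other prefix has 1 library per group.

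Of the 5 members that sense foreign nucleic acid, 4 rose and 1 fell with CpG, while on the wider list of 18 nucleic acid sensing genes 4 rose and 8 fell. Dhx58 (LGP2), a helicase that modulates the RNA sensors, had 40.7, 32.7 and 34.8 CPM in naive and 104, 109 and 109.6 CPM in CpG, a change of 1.58 ± 0.16 (adjusted p = 6.49e-05). Ifih1 (MDA5), which senses long double-stranded RNA, had 12.4, 7.46 and 7.88 CPM in naive and 20.0, 24.5 and 32.1 CPM in CpG (1.46 ± 0.28, adjusted p = 0.00229). The CpG libraries were above every naive library in both genes. Eif2ak2 (PKR), a kinase that halts translation on double-stranded RNA, went from 41.8 to 47.8 CPM in naive to 74.7 to 94.2 CPM in CpG (0.89 ± 0.23, adjusted p = 0.0114). Zbp1, a sensor of Z-form nucleic acid, had 42.6 to 48.0 CPM in naive and 52.5 to 66.5 CPM in CpG (0.42 ± 0.13, adjusted p = 0.0248). Ddx58 (RIG-I), which senses short RNA with a triphosphate end, went the other way, from 175, 197 and 193 CPM to 114, 115 and 129 CPM (-0.65 ± 0.20, adjusted p = 0.0256). Of the calls in this paragraph, those of Zbp1 and Ddx58 were lost when single libraries were left out, with adjusted p up to 0.0906 and 0.0730.

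The oligoadenylate synthetases make 2'-5' oligoadenylates that activate RNase L, and 2 of the 5 family members rose with CpG. Oas1a had 9.01, 7.96 and 8.93 CPM in naive and 27.3, 28.5 and 31.9 CPM in CpG (1.76 ± 0.25, adjusted p = 0.00044). Oas2 had 22.5, 23.9 and 24.0 CPM in naive and 63.3, 40.1 and 48.7 CPM in CpG (1.11 ± 0.36, adjusted p = 0.0287). Neither gene's groups overlapped, though the Oas2 call was lost without any 1 of 5 libraries (all but CpG replicate 2, adjusted p up to 0.0852). Oas3 had 11.7, 16.1 and 14.0 CPM against 16.1, 36.7 and 29.8 CPM, and did not pass in this edgeR fit (adjusted p = 0.0741). DESeq2 called it higher, as did edgeR with no filter, within the 2 groups alone, and with a term for replicate or prefix. With other scaling factors it did not pass. Oasl1, which represses Irf7 translation, and Oasl2 did not pass either.

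Of the Ifit proteins, Ifit1 binds viral RNA at its 5' end. Ifit3 had 18.7, 13.7 and 16.1 CPM in naive and 2.13, 2.35 and 1.86 CPM in CpG, a fall of 2.93 on the log2 scale (SE 0.54, adjusted p = 0.00191), the largest fall among the members. Ifit2 had 22.6, 27.5 and 33.4 CPM in naive and 8.58, 14.6 and 18.1 CPM in CpG (-1.01 ± 0.31, adjusted p = 0.0236). The Ifit2 call was lost without CpG replicate 1 or 2 or without naive replicate 2 or 3 (adjusted p up to 0.0773). Ifit1 was at 5.99 to 8.56 CPM in naive and 5.42 to 8.49 CPM in CpG, and the groups overlapped. Ifit3 has a close copy, Ifit3b, so reads that align to both may have been left out of its counts, and Oas1a and Trim30a have close copies as well.

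Among the restriction factors and nucleotide enzymes, 3 of 10 rose and 2 fell. Gbp2, a guanylate-binding GTPase, had 32.3, 33.2 and 34.8 CPM in naive and 47.1, 84.7 and 78.3 CPM in CpG (1.07 ± 0.19, adjusted p = 0.00172). Bst2 (tetherin), which holds budding virus at the membrane, had 43.7, 30.6 and 33.1 CPM in naive and 67.5, 64.8 and 70.1 CPM in CpG (0.91 ± 0.14, adjusted p = 0.000703). Bst2 is also known from plasmacytoid dendritic cells. Their 8 markers summed to 279 to 349 CPM in naive and 279.7 to 344 CPM in CpG, most of it Tcf4 (228 to 268 CPM and 258 to 317 CPM), and 5 fell, 1 rose and 2 did not pass. Siglech, a defining marker, fell from 12.2, 3.76 and 7.99 CPM to 0.0645, 0 and 0 CPM, and Ccr9 rose from 2.45 to 4.17 CPM to 10.4 to 14.6 CPM (1.93, adjusted p = 0.00153). Their part in the Bst2 rise was not tested. Isg20, an RNA exonuclease, rose as well, from 14.0 to 15.1 CPM to 21.6 to 25.3 CPM (0.73 ± 0.18, adjusted p = 0.00794). Samhd1, which destroys the nucleotides needed for reverse transcription, had 899, 1041 and 1100.2 CPM in naive and 499, 514 and 346 CPM in CpG (-1.16 ± 0.18, adjusted p = 0.000614). Rsad2 (viperin), which makes a chain-terminating nucleotide, had 9.58, 6.66 and 7.99 CPM in naive and 2.13, 2.94 and 3.27 CPM in CpG (-1.53 ± 0.39, adjusted p = 0.0107). The libraries of both groups stood clear of each other in all 5 genes. Mx1, Mx2, Cmpk2, Adar and Rtp4 did not pass. Every CpG library was nevertheless above every naive one in Mx2 and below every one in Cmpk2. Within the 2 groups alone both genes were called.

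Of the 2 receptor chains and 3 transcription factors among the members, Ifnar2 passed the test with CpG. It rose from 63.2, 61.6 and 56.5 CPM to 90.6, 92.1 and 75.5 CPM (0.51 ± 0.12, adjusted p = 0.00572), while Ifnar1 overlapped (153 to 191 CPM against 156 to 189 CPM). None of Irf7, Irf9 and Stat2 passed. Irf7 was nevertheless lower in every CpG library, at 34.6 to 39.2 CPM against 57.2 to 60.6 CPM (-0.69 ± 0.31, adjusted p = 0.101). DESeq2 called it lower, as did edgeR with no filter, within the 2 groups alone and within the 5 libraries that share a prefix. Isg15, the ubiquitin-like modifier, had 10.2, 7.36 and 9.87 CPM in naive and 17.2, 15.0 and 19.7 CPM in CpG (0.92 ± 0.17, adjusted p = 0.00211). Trim25, the ubiquitin ligase that helps activate Ddx58, fell from 229.7, 319 and 329 CPM to 179, 221 and 195 CPM (-0.56 ± 0.19, adjusted p = 0.0341). That call was lost without CpG replicate 1 or 3 or naive replicate 2 or 3 (adjusted p up to 0.110). Usp18, Herc6, Dtx3l, Parp9 and Parp14 of the same ubiquitin-related group, and Ifi44, Ifi35, Trim30a, Xaf1 and Sp100, did not pass. Within the 2 groups alone Trim30a was called higher and Sp100 lower.

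**Figure D2:**
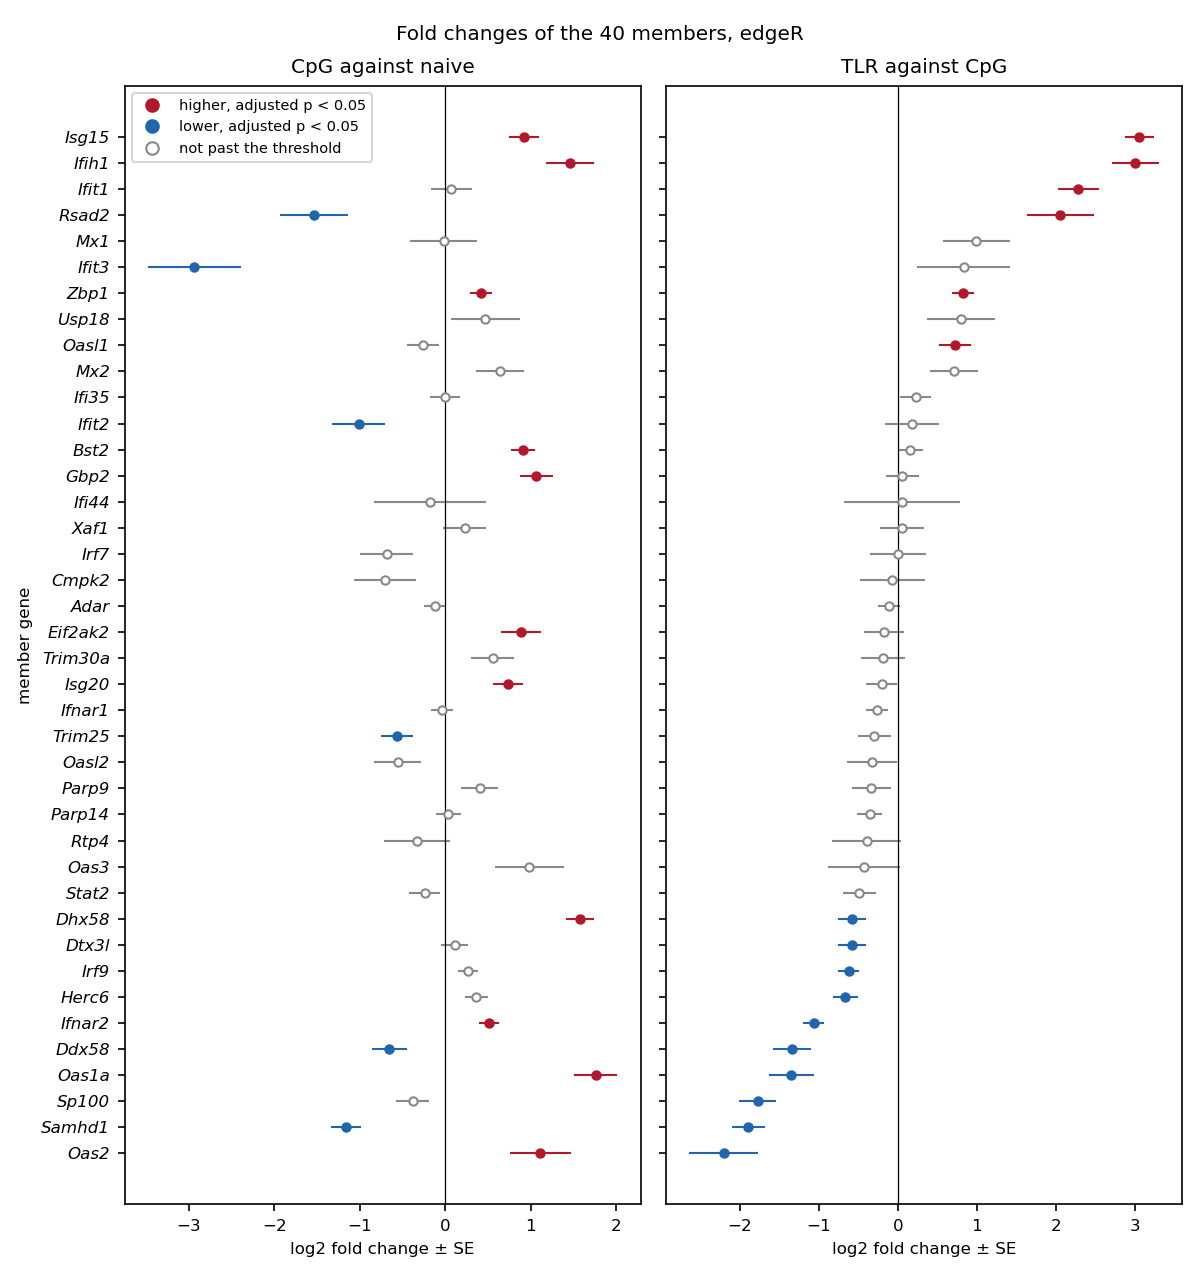
Log2 fold changes (points) with their SE (bars) of the 40 members for CpG against naive (left) and TLR against CpG (right), ordered by the right panel; red is higher and blue lower at an adjusted p below 0.05 in edgeR, and open grey points did not pass. Oas2, Oas1a, Ifnar2 and Dhx58 stand to the right on the left panel and to the left on the right panel, and Rsad2 does the opposite; the 2 panels share the CpG libraries.

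TLR against CpG asks what the final hours with LPS, PMA and ionomycin added. Of the 40 members, 6 rose, 10 fell and 24 did not pass. Over all tested genes 38.8% were called, 19.0% higher and 19.8% lower. With TLR libraries entirely above or entirely below the CpG libraries, 7 members were higher and 12 lower (29.2% and 30.1% of all genes). The median log2 change was -0.18, against -0.02 over all genes. The direction of change depended on which TLR library was used. With TLR replicate 1 alone the members' median log2 change was -0.71, and with replicate 2 alone 0.22. That of all genes was -0.04 in both fits. Within the libraries that share a prefix, which hold TLR replicate 2 only, the members' median log2 change was 0.09, against -0.03 over all genes. In the fits with 1 TLR library it was assumed to vary like the libraries of the other groups. The calls of 10 members stood with both TLR libraries and with either alone: Isg15, Ifih1, Ifit1 and Zbp1 higher, and Samhd1, Sp100, Ddx58, Oas1a, Oas2 and Ifnar2 lower. Ifit3 and Irf7 were called in opposite directions, at -1.22 (adjusted p = 0.0431) and -1.05 (adjusted p = 0.00254) with replicate 1 alone, and at 1.64 (adjusted p = 0.00387) and 0.60 (adjusted p = 0.0187) with replicate 2 alone. Over the 40 members, 19 had fold changes of opposite sign with either TLR library alone.

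The 4 members that rose in all fits were led by Isg15 and Ifih1. Isg15 had 17.2, 15.0 and 19.7 CPM in CpG and 164 and 125 CPM in TLR, a rise of 3.06 ± 0.19 (adjusted p = 5.84e-06). Ifih1 had 20.0, 24.5 and 32.1 CPM in CpG and 264 and 147 CPM in TLR (3.01 ± 0.29, adjusted p = 5.39e-05). Both genes were higher in TLR replicate 1 than in replicate 2, unlike most members. Ifit1 had 5.42, 8.49 and 8.46 CPM in CpG and 30.0 and 43.0 CPM in TLR (2.29 ± 0.26, adjusted p = 0.000119), while its relatives Ifit2 and Ifit3 did not pass. Zbp1 had 66.5, 52.5 and 59.6 CPM in CpG and 93.6 and 117 CPM in TLR (0.83 ± 0.14, adjusted p = 0.00147). Each of these genes lay above the whole CpG range in both TLR libraries.

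Rsad2 and Oasl1 also rose, but not with each TLR library alone. Rsad2 had 2.13, 2.94 and 3.27 CPM in CpG and 5.66 and 17.6 CPM in TLR (2.06 ± 0.43, adjusted p = 0.00397). With TLR replicate 1 alone its change was 1.02 (adjusted p = 0.0696), so the size of the rise came largely from replicate 2. Oasl1 had 23.0, 19.0 and 28.7 CPM in CpG and 39.9 and 38.0 CPM in TLR (0.72 ± 0.21, adjusted p = 0.0195). The call was lost with either TLR library alone (adjusted p = 0.0736 and 0.0998) and without CpG replicate 2.

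The members that fell included Samhd1 and Sp100, which were among the most abundant in naive cells. Samhd1 had 499, 514 and 346 CPM in CpG and 107 and 137 CPM in TLR (-1.89 ± 0.21, adjusted p = 0.000111). Sp100, a component of PML nuclear bodies, had 464, 514 and 435 CPM in CpG and 96.6 and 179 CPM in TLR (-1.77 ± 0.23, adjusted p = 0.000286). Ddx58 had 114, 115 and 129 CPM in CpG and 31.8 and 62.9 CPM in TLR (-1.34 ± 0.24, adjusted p = 0.00179). So the 2 RNA sensors Ifih1 and Ddx58 moved in opposite directions in the same libraries. Oas2 had 63.3, 40.1 and 48.7 CPM in CpG and 4.70 and 17.2 CPM in TLR (-2.20 ± 0.43, adjusted p = 0.00305). Its change was -3.43 with TLR replicate 1 alone and -1.56 with replicate 2 alone. Oas1a had 27.3, 28.5 and 31.9 CPM in CpG and 7.19 and 15.7 CPM in TLR (-1.35 ± 0.29, adjusted p = 0.00457). Its change was -2.03 with replicate 1 alone and -0.89 with replicate 2 alone. Both synthetases had risen with CpG, and the comparisons share the CpG libraries.

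Ifnar2, the receptor chain, had 90.6, 92.1 and 75.5 CPM in CpG and 43.9 and 38.4 CPM in TLR (-1.07 ± 0.13, adjusted p = 0.00023), and both TLR libraries also lay below every naive library. Ifnar1 was at 156 and 130.0 CPM, just below the CpG libraries, and did not pass (adjusted p = 0.176). Irf9 had 227, 204 and 198 CPM in CpG and 119.9 and 153 CPM in TLR (-0.62 ± 0.13, adjusted p = 0.00505). Herc6, the ligase that attaches Isg15 in mice, had 41.3, 39.7 and 53.5 CPM in CpG and 28.4 and 28.2 CPM in TLR (-0.66 ± 0.16, adjusted p = 0.00774), so the modifier rose where its ligase fell. Dhx58 had 56.4 and 87.8 CPM in TLR, below its CpG libraries (-0.58 ± 0.18, adjusted p = 0.0295). Dtx3l, a ubiquitin ligase that pairs with Parp9, had 107, 146 and 131 CPM in CpG and 72.5 and 98.9 CPM in TLR (-0.58 ± 0.18, adjusted p = 0.0294). The calls of Irf9, Dhx58 and Dtx3l were lost with TLR replicate 2 alone (adjusted p = 0.0609, 0.238 and 0.242). Those of Dhx58 and Dtx3l were also lost without CpG replicate 2 or 3. That of Herc6 was lost with either TLR library alone (adjusted p up to 0.0518).

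**Figure D3:**
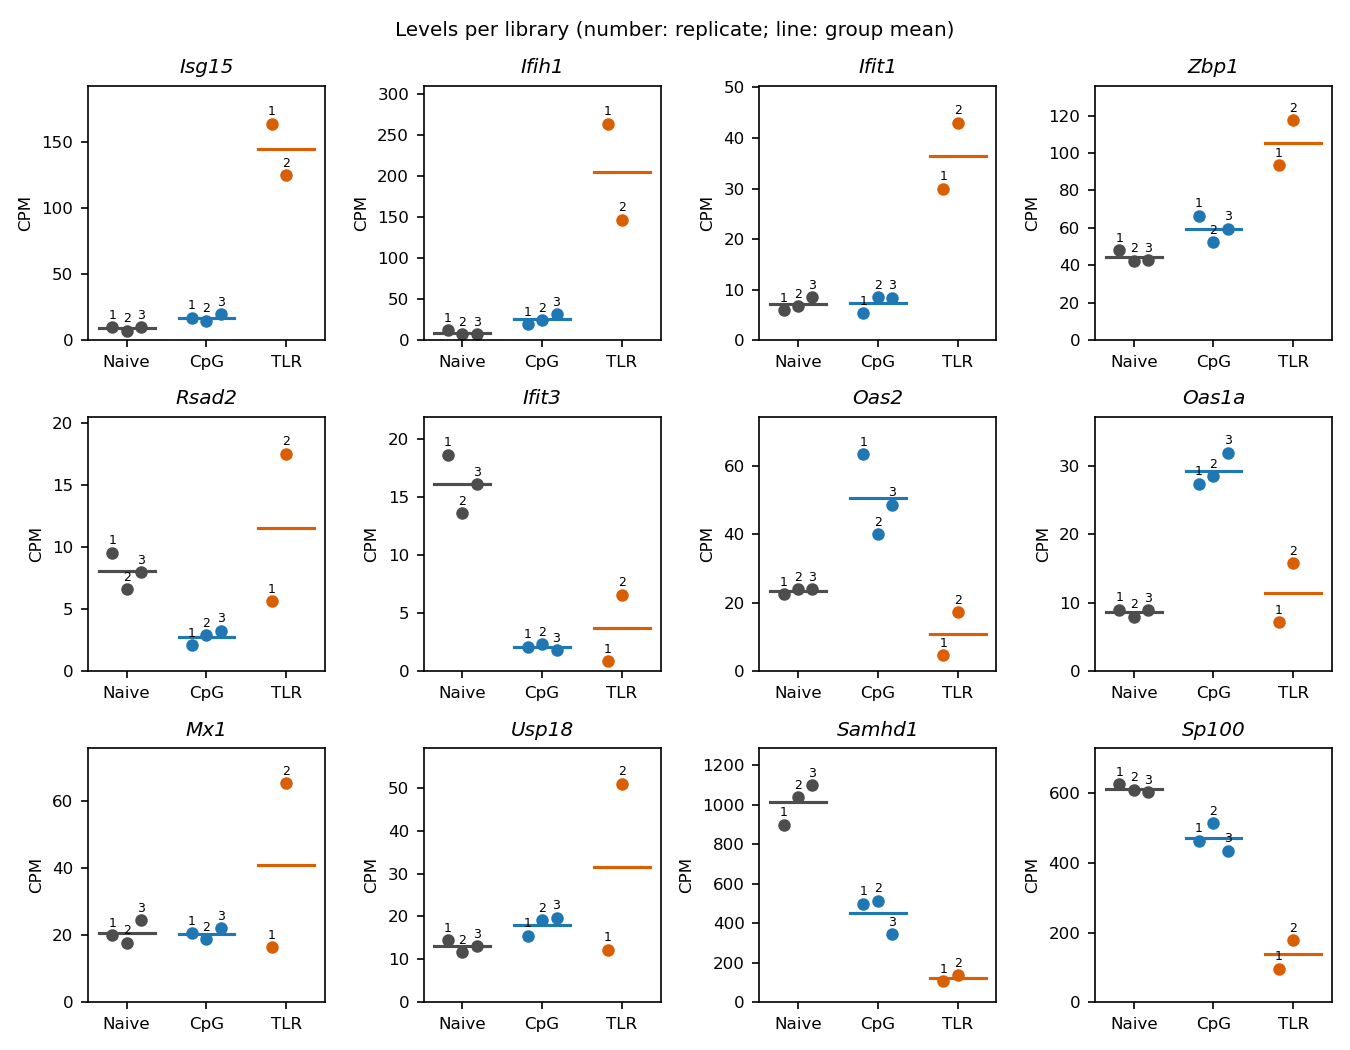
CPM in every library of 12 members, with the replicate number beside each point and a line at the group mean; each panel has its own axis from 0. Isg15, Ifih1, Ifit1 and Zbp1 are high in both TLR libraries, Samhd1 and Sp100 are low in both, and Mx1 and Usp18 are high in TLR replicate 2 alone.

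TLR against naive shares its libraries with both comparisons above, and its values are set beside theirs. Of the 40 members, 11 rose, 11 fell and 18 did not pass, where 61.2% of all tested genes were called, 31.6% higher and 29.7% lower. The groups did not overlap in 11 members with TLR higher and 15 with TLR lower (39.8% and 38.3% of all genes). The members' median log2 change was -0.03, against 0.01 over all genes. With TLR replicate 1 alone the members' median was -0.40, and with replicate 2 alone 0.44, where that of all genes was -0.03 in both fits. Without naive replicate 2 or 3, 7 members were lower, and 3752 and 3709 of all tested genes. Within the libraries that share a prefix the members' median was 0.33, against 0.02 over all genes. The members that rose with both TLR libraries and with either alone were Ifih1 (4.47 ± 0.31), Isg15 (3.98 ± 0.19), Ifit1 (2.36 ± 0.26), Zbp1 (1.25 ± 0.14), Gbp2 (1.13 ± 0.21), Bst2 (1.07 ± 0.15) and Dhx58 (1.00 ± 0.18). Those that fell in each of these fits were Samhd1 (-3.05 ± 0.22), Sp100 (-2.15 ± 0.24), Ifit3 (-2.10 ± 0.60) and Ddx58 (-1.99 ± 0.25). The Ifit3 change was -4.14 with TLR replicate 1 alone and -1.28 with replicate 2 alone. Gbp2 and Bst2 stayed near their CpG levels in TLR, at 69.4 and 76.7 CPM and at 70.7 and 79.9 CPM.

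The remaining calls against naive cells were each lost with 1 of the TLR libraries alone. Usp18 rose by 1.27 ± 0.44 (adjusted p = 0.0283), but with TLR replicate 1 alone its change was -0.09 (adjusted p = 0.788). Mx2, a relative of Mx1, had 8.07, 10.8 and 10.1 CPM in naive and 14.9 and 34.3 CPM in TLR (1.35 ± 0.31, adjusted p = 0.00366). Its change was 0.63 with TLR replicate 1 alone (adjusted p = 0.0719). Eif2ak2 and Isg20, at 0.71 ± 0.25 and 0.53 ± 0.20, were likewise lost with replicate 1 alone (adjusted p up to 0.747 and 0.490 over the left-out libraries), and so was the fall of Ifnar2 (-0.56 ± 0.13, adjusted p up to 0.0537). The falls of Trim25 (-0.86 ± 0.22), Stat2 (-0.72 ± 0.21), Oasl2 (-0.88 ± 0.32), Dtx3l (-0.47 ± 0.18), Irf9 (-0.35 ± 0.13) and Oas2 (-1.09 ± 0.42) were lost with replicate 2 alone (adjusted p up to 0.0695, 0.124, 0.261, 0.339, 0.352 and 0.177). Calls of Usp18, Eif2ak2, Isg20, Oas2, Oasl2, Dtx3l and Irf9 were also lost without naive replicate 2 or 3, and those of Eif2ak2, Isg20, Oas2 and Irf9 without naive replicate 1. In all, 27 members were called by edgeR in at least 1 comparison and 13 in none: Adar, Cmpk2, Ifi35, Ifi44, Ifnar1, Irf7, Mx1, Oas3, Parp14, Parp9, Rtp4, Trim30a and Xaf1. DESeq2 called 4 of these 13: Irf7 and Oas3 in CpG against naive, Mx1 in both TLR comparisons and Ifnar1 in TLR against naive.

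**Figure D4:**
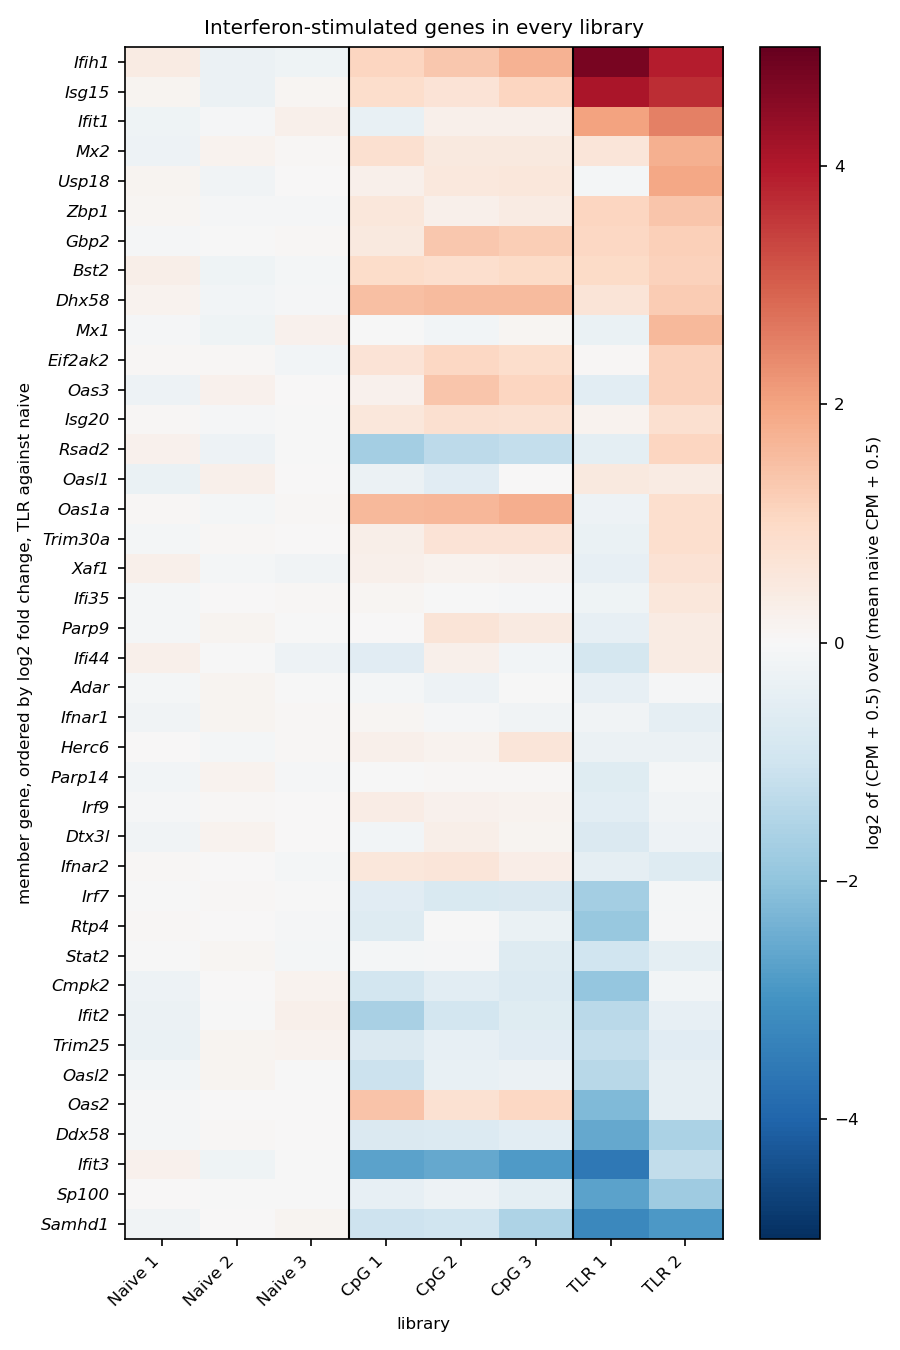
Log2 of CPM + 0.5 over the mean naive CPM + 0.5 for the 40 members (rows, ordered by TLR against naive) in the 8 libraries (columns, with lines between groups). The 2 TLR columns differ in most of the middle rows, where replicate 1 is blue and replicate 2 pale or red, and resemble each other at the top (Ifih1, Isg15, Ifit1) and at the bottom (Sp100, Samhd1).

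Levels of different members can be compared only per length, here as CPM per kilobase of merged exons (GENCODE M21), and the order below is of group means without a test. In naive cells Samhd1 was the most abundant member at 111 CPM per kilobase, followed by Sp100 at 81.0 and Trim25 and Trim30a at 50.8 and 50.1. Isg15 was 19th at 12.1 and Ifih1 39th at 1.13, above Ifi44 alone at 0.118. In CpG cells Bst2 led at 74.7, close to Trim30a at 73.6. In TLR cells Isg15 led at 191, with 164 and 125 CPM in the libraries before division by length, and Bst2 followed at 83.4. Samhd1 had dropped to the 21st place at 13.3, and Ifih1 stood 10th at 25.2. Ifi44 was the lowest member in every group.

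The interferon genes found by symbol were almost absent. Of 21 interferon genes listed, 11 were found by symbol, and 9 of these (Ifnb1, Ifna2, Ifna4, Ifna12, Ifna13, Ifna16, Ifne, Ifnl2 and Ifnl3) had 0 counts in every library, which allows up to 3 counts in each, or 0.150 to 0.193 CPM, by counting error alone. Reads that align to several of these genes may also have been left out. The listed interferon genes that were not found, most of them Ifna genes, were not measured here. Ifnk had 3 counts over the naive libraries, 4 over CpG and 0 over TLR. Ifng, which T and natural killer cells make, had 56 counts over the naive libraries, 3 over CpG and 1 over TLR, and fell in CpG (adjusted p = 0.00947). The markers of natural killer cells summed to 67.8, 11.7 and 60.1 CPM in naive and to 1.68 to 2.78 CPM in CpG, with all 8 called lower. Their part in the Ifng value was not tested.

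Markers of other cells fell from naive to CpG cells as well. Of 14 macrophage and monocyte markers 12 fell, and their sum was 1392, 338 and 189 CPM in naive against 32.9 to 65.1 CPM in CpG. Of 12 T cell markers 10 fell, from a sum of 14.1 to 38.5 CPM to one of 2.73 to 5.77 CPM. Naive replicate 1 had the most macrophage marker RNA. Of the 6 members that fell with CpG, Samhd1, Ifit2, Ddx58 and Trim25 were lowest in that library among the naive ones, and Ifit3 and Rsad2 were highest in it. The calls of Ifit3 and Rsad2 stood without that library. Naive replicates 2 and 3 still held 338 and 189 CPM of the macrophage and monocyte markers. The part of other cells in the falls of these members was not tested.

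The other genes of the pathway were read from 7 lists, of which 15 of 167 genes were not found by symbol. Beside their counts stand the shares over all tested genes, 23.5% higher and 21.9% lower with CpG and 19.0% higher and 19.8% lower in TLR against CpG, and beside their median log2 changes those of all genes, 0.01 and -0.02. Of the 11 receptor and JAK-STAT genes 2 rose and 5 fell with CpG, and 3 rose and 4 fell in TLR against CpG, with medians of -0.33 and -0.30. Ifnlr1, a chain of the interferon lambda receptor, rose with CpG (1.74 ± 0.28) and fell in TLR (-2.19 ± 0.33). Ifngr1, a chain of the interferon gamma receptor, fell at both steps (-1.05 ± 0.11 and -0.61 ± 0.13). Il10rb, a chain shared by interferon lambda and interleukin 10 receptors, also fell at both (-0.94 ± 0.10 and -0.50 ± 0.11). The kinase Jak2 fell with CpG (-1.02 ± 0.13) and rose in TLR (0.64 ± 0.15).

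Among the 10 interferon regulatory factors and their binding partners, 2 rose and 6 fell with CpG, and 1 rose and 5 fell in TLR against CpG, with medians of -0.45 and -0.49. Irf1, an activator of interferon-stimulated genes, had 231, 229 and 237 CPM in naive, 74.6, 89.7 and 72.8 CPM in CpG and 35.4 and 42.3 CPM in TLR (-1.56 ± 0.12 and -1.02 ± 0.13). Irf8, which B cells and dendritic cells need, had 689.7, 707 and 733 CPM in naive, 1506, 1296 and 1411 CPM in CpG and 597 and 695 CPM in TLR (0.98 ± 0.12 and -1.12 ± 0.14). Irf5 fell at both steps (-0.72 ± 0.11 and -0.50 ± 0.12), as did Irf2bpl (-0.90 ± 0.10 and -0.48 ± 0.12). Irf3, which acts directly below the nucleic acid sensors, fell with CpG (-0.40 ± 0.13, adjusted p = 0.0321) and had 179 and 199 CPM in TLR against 127 to 173 CPM in CpG (adjusted p = 0.0783).

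Of 18 nucleic acid sensing genes 4 rose and 8 fell with CpG, and 0 rose and 11 fell in TLR against CpG (over all genes 23.5% and 21.9%, then 19.0% and 19.8%), with medians of -0.19 and -0.48. In TLR against CpG none of them was higher in edgeR at an unadjusted p below 0.05 either, and DESeq2 called none higher. Tlr9, the receptor for CpG, had 118, 152 and 197 CPM in CpG and 38.3 and 49.8 CPM in TLR (-1.82 ± 0.23, adjusted p = 0.000237), after no call against naive cells (146, 188 and 151 CPM). Tlr7, the receptor for single-stranded RNA, had 77.2, 88.3 and 87.7 CPM in CpG and 27.1 and 52.7 CPM in TLR (-1.08 ± 0.23). Unc93b1, which carries both receptors to the endosome, fell by 2.21 on the log2 scale in TLR, Tlr4 by 2.66, and Tmem173 (STING), the adaptor for cytosolic DNA, by 1.77. With CpG, Ticam1 (TRIF) rose by 1.15 ± 0.13, while Ikbkb, Traf3 and Tlr4 fell (-0.90 ± 0.11, -0.79 ± 0.12 and -1.11 ± 0.20).

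Of the 17 listed brakes on cytokine and interferon signalling 5 rose and 5 fell with CpG, and 5 rose and 3 fell in TLR against CpG, with medians of -0.25 and 0.19. Socs1, which inhibits Jak1 and Tyk2, had 7.71, 6.51 and 9.81 CPM in naive, 21.0, 18.3 and 17.4 CPM in CpG and 17.7 and 16.0 CPM in TLR, a rise of 1.24 ± 0.19 with CpG that was not followed by a call. Socs3 rose by 4.56 ± 0.32 with CpG, Tnfaip3 (A20) by 1.27 ± 0.19 and Otud5 by 0.76 ± 0.13. In TLR the phosphatase Ptpn2 rose (0.88 ± 0.15), and Pias1 and Ptpn1 fell (-1.01 ± 0.11 and -0.80 ± 0.14), as did Ptpn6 (adjusted p = 0.00224).

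Of 12 interferon gamma GTPases tested, 1 rose and 6 fell with CpG and 0 rose and 5 fell in TLR against CpG in edgeR, with 0 higher at an unadjusted p below 0.05 and 0 in DESeq2. Their medians were -1.03 and -0.50. Gbp3 rose with CpG and then fell (0.51 ± 0.09 and -1.15 ± 0.11), Gbp4 fell at both steps (-1.44 ± 0.18 and -1.28 ± 0.22), and so did Gbp9 (-1.42 ± 0.17 and -1.08 ± 0.20). The member Gbp2 rose with CpG, as Gbp3 did, and like 7 of the 12 had no call in TLR against CpG. Of 68 other interferon-induced genes 16 rose and 25 fell with CpG, among them Ifitm2 (5.94 ± 0.35), Phf11a (3.22 ± 0.19), Phf11b (2.06 ± 0.14) and Apobec1 (1.48 ± 0.13). In TLR against CpG 29 of the 68 fell. The medians of these 68 were -0.23 and -0.56. Among the falls were Ly6e, Apobec1 and Ifi30 at -2.11 ± 0.16, -1.55 ± 0.15 and -1.49 ± 0.16. The 4 that rose were Slfn2 (1.35 ± 0.13), Psme2, Cxcl10 and Ifi205, the last 3 named after their values were seen. Cxcl10, a chemokine, had 0, 1 and 0 counts in CpG and 72 and 116 counts in TLR, so it was found in both TLR libraries.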

How the data were processed

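RNA-seq of 3 naive, 3 CpG and 2 TLR libraries was used, grouped by the labels. Each library's deposited table holds unnormalised read counts for every gene, which its file name says were made without strand. Per the submitters' processing notes the authors used STAR, HTSeq and edgeR with build mm9; versions and the annotation release are not given in the sources used here. Per the labels' protocols, RNA was polyA-selected and the library kit kept strand. HTSeq's 5 summary lines were left out. GENCODE M21 gave symbols for 32860 of 37583 identifiers, and the other 4723 held at most 1.02% of any library's counts (1.015).

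The members and lists were chosen with earlier results of these data known. Members were described whatever their values. A B cell marker and a pathway gene are not reported here and were left out of their lists' sums and counts. From each other list up to 4 called genes per comparison were named by smallest p, plus Ifnb1, Ifng, Irf1, Irf3, Irf8, Tlr9, Tlr7 and Socs1.

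The analysis ran in edgeR 4.0.16 under R 4.3.3: filterByExpr (13964 genes), TMM factors, and a quasi-likelihood fit of all 8 libraries with a mean per group (common dispersion 0.0421). The SE was taken from the fold change and the F statistic (log2 change over its square root), and fold changes used a prior count of 0.125. The pair of TLR libraries was compared with 0.5 CPM added. Results were recomputed with DESeq2 1.42.0, with RLE factors or library size alone, with other filters, within the 2 groups compared, with a replicate block or a prefix term, on the 5 libraries that share a prefix, without immunoglobulin genes, and without each library in turn. For the TLR pair, other pseudocounts, library size alone and leaving out immunoglobulin genes were chosen after seeing the data. The fit was tested on simulated data.

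Because counting ignored strand, reads of overlapping genes cannot be told apart. In GENCODE M21, another gene covered 16.8% of the exon bases of Adar (Chrnb2) and of Ifi35 (Gm11626), 13.9% of those of Rtp4, 13.7% of those of Herc6, 9.46% of those of Ifnar2, and 9.40% and 8.00% of those of Parp9 and Dtx3l, which overlap each other.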

Additional observations from a re-analysis of the deposited data

How the results depend on the processing

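The members' direction and calls moved mostly with the TLR libraries. With only the 5 libraries of the common prefix, the members' median log2 change was 0.09 in TLR against CpG in place of -0.18. In TLR against naive it was 0.33 in place of -0.03. The medians of all genes were then -0.03 and 0.02. Over the fits that left out each library in turn, the members lower in CpG against naive numbered 3 to 6, and all tested genes lower 2349 to 3270. All tested genes called in TLR against CpG numbered 3516 to 5625, the members higher in that comparison 4 to 11 and those lower 6 to 18. In TLR against naive the members' median log2 change ran from -0.40 to 0.44, and that of all genes from -0.03 to 0.04. Without TLR replicate 2, 10 members changed sign in TLR against CpG and 9 in TLR against naive. Among these were Ifit3 and Irf7 in TLR against CpG, at -1.22 and -1.05, and Usp18 in TLR against naive, at -0.0868. Without TLR replicate 1 these values were 1.64, 0.60 and 1.97. Mx1, which edgeR did not call with both TLR libraries, went from 1.00 to -0.32 against CpG and from 0.98 to -0.33 against naive without TLR replicate 2. Without TLR replicate 1, 9 members changed sign in TLR against CpG and 1 in TLR against naive. The cause was not tested beyond these fits. DESeq2, RLE factors, library size alone, other filters, the prefix term and leaving out immunoglobulin genes left the members' counts in each direction within 1.5 times. In TLR against naive the calls of Eif2ak2, Isg20, Oas2 and Usp18 were lost within the 2 groups alone, that of Isg20 also with DESeq2, RLE factors and no filter, and that of Irf9 with no filter. Within the libraries of the common prefix those of Dhx58 and Oasl1 were lost in TLR against CpG, and those of Dtx3l, Irf9, Oas2 and Stat2 in TLR against naive. No scaling moved the median of all tested genes by over 0.1, apart from the fits with no filter. The count of members over 2-fold apart between the TLR libraries was 15, and 13 with a pseudocount of 2 CPM.

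The labels tie samples of 1 replicate number by nothing but the number, though the replicate 1 files share a prefix and a high share of entries aligned to several places. The deviations of samples with the same number correlated at 0.32 and 0.33 between CpG and TLR. They correlated at 0.15, 0.09 and 0.01 between naive and CpG and at 0.10 and -0.00024 between naive and TLR. Among the CpG libraries naive replicate 3 correlated best with replicate 2. The deviations of the 2 TLR libraries mirror each other, so the values with TLR rest on 1 contrast and are not separate pairs. With the replicate block, 15 members were higher and 7 lower in CpG against naive, 6 and 12 in TLR against CpG, and 10 and 13 in TLR against naive, and 6665, 5541 and 8602 genes were called. It added the calls of Herc6, Oas3, Oasl2, Parp9 and Trim30a in CpG against naive, of Parp14 and Stat2 in TLR against CpG, and of Cmpk2, Ifit2, Oasl1 and Parp14 in TLR against naive. Isg20, Oas2 and Usp18 were not called in TLR against naive with it. A TLR group of 2 libraries limits every count above.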
